A study of Triticum aestivum with 24 samples.

Results

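In flag leaves of winter wheat (Triticum aestivum), 27 of 61179 Affymetrix probe sets gave a clear signal in the cultivar TAM 111. In the cultivar TAM 112 these probe sets gave signals near the floor of the scale. They were chosen by the signal itself: above 250 on each of the 8 TAM 111 arrays numbered replicate 1 or 3, and below 69, the median of all values in the series, on each of the 12 TAM 112 arrays. The 4 TAM 111 arrays numbered replicate 2 took no part in the choice, since 3 of them were known to lie between the cultivars. Since the difference between the cultivars chose these probe sets, it is given as a description with no test. The series held 24 arrays of total RNA from flag leaves of greenhouse plants, in 8 groups of 3 replicates. The groups were TAM 111 at grain filling under dry and under wet treatment, TAM 111 at heading under dry and under wet treatment, and the same 4 groups of TAM 112. The labels give 90% and 50% of field capacity as the water levels without tying them to the names wet and dry. The labels do not say whether replicates were separate plants, and the p-values below cover the variation among these arrays alone, part of which may be technical.

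TAM 111 and TAM 112 are hard red winter wheats bred for the dry Southern Great Plains of the United States. Bread wheat is a hexaploid whose related subgenomes carry near-identical copies, or homoeologues, of most genes, and cultivars can differ in whether a copy is present, in its sequence and in its activity. The flag leaf is the last leaf to unfold below the ear and feeds much of the sugar that fills the grain. A probe set is a group of short oligonucleotides designed from expressed sequences, and its signal depends both on the amount of matching RNA and on how well that RNA pairs with the probes. These 2 quantities cannot be told apart in a signal, nor can fewer cells of a type and less RNA per cell in bulk leaf tissue.

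Each signal is a MAS5 value, a weighted average over the probes of a set on a linear scale, and every array had been scaled to the same trimmed mean of 500. The median signal per array lay between 60.4 and 77.2. As a check of the tissue, 7 of 7 photosynthesis genes were found in the probe table. Among them were rbcl, the large subunit of Rubisco, and PRK, phosphoribulokinase. Each was read by its probe set with the highest mean signal, a choice that favours high values. Signals of these 7 probe sets were 12100 to 70810 in TAM 111 and 8791 to 79670 in TAM 112. Before any result, 3 TAM 111 arrays have to be set apart: replicate 2 of grain filling wet, of heading dry and of heading wet gave values between those of the cultivars, as described below. Counts of calls and medians that rest on them are given with and without them, as are the changes of the probe sets named for a call.

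The mean signal of a probe set over the 8 selecting TAM 111 arrays ranged from 359.5 (TaAffx.114842.1.S1_at) to 5606 (Ta.22403.1.S1_at), with a median of 842.4 over the 27, and 10 means exceeded 1000. Among the 15613 probe sets above 250 on these 8 arrays the median of the means was 1258, and 19 of the 27 lay below it. In TAM 112 the 324 signals of the 27 probe sets ran from 0.5525 to 68.78 with a median of 14.97. For comparison, 23 control probe sets on the array named Tag or TrpnX, which are not designed against wheat genes, had signals of 0.812 to 137.8 in TAM 112 with a median of 12.53. The label "detected only in TAM 111" thus describes levels. In TAM 112 the limit of 69 already placed the 27 probe sets below the highest control signal. Their place among the controls therefore does not test whether their RNA was absent. Detection calls were not used here.

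The brightest was Ta.22403.1.S1_at, with a lowest, median and highest signal of 3335, 5353 and 7708 on the 8 selecting TAM 111 arrays, against a highest signal of 29.47 in TAM 112. Ta.24954.1.S1_at followed with 3699, 4069 and 4803 in TAM 111, against at most 30.66 in TAM 112. Ta.883.1.S1_at had 2274, 2611 and 3913 in TAM 111, against at most 59.83 in TAM 112. These 3 probe sets exceeded 1000 on every selecting TAM 111 array, as did Ta.28489.1.A1_at, Ta.6210.1.S1_at, Ta.11179.1.A1_at and Ta.2922.1.S1_at.

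Ta.28489.1.A1_at had a lowest, median and highest TAM 111 signal of 1879, 2312 and 2563, against at most 57.46 in TAM 112. Ta.6210.1.S1_at had 1061, 1483 and 2250 in TAM 111, against at most 67.4 in TAM 112, and Ta.11179.1.A1_at had 1214, 1570 and 1800 in TAM 111, against at most 39.35 in TAM 112. Another pair among the 8 brightest varied far more within TAM 111. Ta.23191.1.S1_at had 419.2, 2825 and 4420 in TAM 111 and at most 53.16 in TAM 112, and TaAffx.13303.1.S1_at had 828, 1796 and 6514 in TAM 111 and at most 65.09 in TAM 112. The means of the other 19 ran from 359.5 to 1183 in TAM 111.

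The distance between the cultivars varied among the 27. The lowest selecting TAM 111 signal exceeded the highest TAM 112 signal by 3.96-fold for Ta.28866.3.A1_at, by 213-fold for Ta.2922.1.S1_at and by a median of 9.86-fold, with 13 probe sets above 10-fold. Ta.2922.1.S1_at combined TAM 111 signals of 1015 to 1364 with TAM 112 signals of 1.41 to 4.768. The ratio of the highest to the lowest selecting TAM 111 signal had a median of 1.86 over the 27, against 1.61 over the 15613 probe sets above 250, and it was below 2 for 55.6% of the 27 and for 75.9% of that class. It was smallest for TaAffx.114842.1.S1_at (1.21) and largest for Ta.23191.1.S1_at (10.5).

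Near the limits, the lowest TAM 111 signals inside were 254.2 for Ta.1677.1.S1_at, 264.0 for Ta.28866.3.A1_at and 274.5 for Ta.8991.1.S1_at. Just outside stood TaAffx.53365.1.S1_at, TaAffx.131355.1.S1_at and Ta.6283.1.S1_at, whose lowest TAM 111 signals were 239.3, 238.2 and 235.5. On the TAM 112 side the highest signals inside were 68.78 for Ta.8872.1.S1_at, 67.4 for Ta.6210.1.S1_at and 66.65 for Ta.28866.3.A1_at, and Ta.4613.1.S1_at, Ta.3629.3.S1_a_at and Ta.25734.1.A1_at were just outside with 69.7, 70.55 and 71.95. No gap separated the list from the probe sets next to it, and its length depends on both limits, as the closing section shows.

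The probe table paired 1273 probe sets of the array with exactly 1 gene. Of the 27, 1 had such a gene: Ta.10508.2.S1_a_at, paired with LOC543418, a protein-coding gene with no further name in the tables used. Its signals in TAM 111 replicates 1, 2 and 3 were 1181, 529 and 980.4 at grain filling dry, 557, 311.2 and 426.3 at grain filling wet, 435.9, 217.5 and 553.2 at heading dry, and 337, 182.5 and 304.4 at heading wet, while its TAM 112 signals ran from 0.5525 to 35.74. Grain filling dry held its highest values. The dry against wet log2 change at grain filling was 0.997 ± 0.481 (SE, n = 3 arrays each; limma adjusted p = 0.167), and 0.788 without the 3 intermediate arrays (adjusted p = 0.3777), and did not pass the test. The other 26 probe sets are named here by their IDs, and no function is given for them.

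The IDs themselves hold some information on design. Of the 27, 23 (85.2%) carried the prefix Ta and 4 (14.8%) the prefix TaAffx, against 80.9% and 19.1% of the 15613 probe sets above 250 in TAM 111 and 51.4% and 48.5% of all 61179. The suffix _at, which marks probes designed to be unique to 1 transcript, stood on 21 of the 27 (77.8%), against 60.8% of that class and 79.2% of all. The suffix _x_at, which marks probe sets that may pair with unrelated transcripts, stood on 0 of the 27, against 17.5% of that class and 11.1% of all. Those on _a_at, for transcripts of 1 gene, and on _s_at, for probes shared between transcripts, numbered 5 and 1. These shares are descriptions with no test.

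The signals of the 4 TAM 111 arrays numbered 2 did not enter the choice. These arrays were left out because 3 of them were already known to lie between the cultivars. Their positions are therefore a description and no independent check of the 27. For each probe set the signal on such an array was placed between the mean of the 3 TAM 112 arrays (0%) and the mean of TAM 111 replicates 1 and 3 (100%) of the same stage and water treatment. On the grain filling dry array the median position was 97.5% (quartiles 89.7% and 102%), and all 27 signals were above 250. On the other 3 arrays the medians were 54.1% at grain filling wet (quartiles 45% and 62.3%), 47.2% at heading dry (42.6% and 58.2%) and 48.9% at heading wet (41.2% and 59.6%). There 19, 18 and 16 of the 27 remained above 250, the others lay between 69 and 250, and 0 of the 81 values fell below 69. By comparison, replicate 1 was a median of 95.6% of replicate 3 at grain filling dry and 103% at grain filling wet. At heading it was 109% under dry and 108% under wet treatment. Both of these replicates took part in the choice, which required high values on each, so this is no independent measure of agreement.

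Of these 81 values, 70 lay between 25% and 75% of the distance. Ta.24954.1.S1_at may serve as an example: replicates 1, 2 and 3 gave 4803, 4465 and 4035 at grain filling dry, 4102, 2418 and 3699 at grain filling wet, 4134, 2077 and 3830 at heading dry, and 4561, 2360 and 3899 at heading wet. Replicate 2 was the lowest of its group at all 3 settings other than grain filling dry. TaAffx.114842.1.S1_at, the steadiest of the 27, had 324.7, 342.9 and 357.8 at grain filling dry and 392.8, 143.9 and 324.2 at heading wet.

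The probe sets with the highest median position over the 4 arrays were Ta.23191.1.S1_at (94.4%), Ta.1677.1.S1_at (83.2%), Ta.9304.1.S1_at (80.6%) and Ta.20147.2.S1_a_at (73.5%). Those with the lowest were Ta.28866.3.A1_at (29.9%), Ta.28835.2.S1_a_at (35.4%), TaAffx.114842.1.S1_at (38.7%) and Ta.8528.1.A1_at (41.0%). The same 3 arrays were intermediate in the opposite direction for the 33 probe sets that were above 250 on the TAM 112 arrays numbered 1 or 3 and below 69 on the TAM 111 arrays numbered 1 or 3. With 0% now at TAM 111 and 100% at TAM 112, their median position was 0.105% on the grain filling dry array, with 32 of 33 signals below 69. It was 46.0% at grain filling wet, 53.1% at heading dry and 49.9% at heading wet, with 93 of 99 values between 25% and 75%. The cause of these intermediate values was not tested.

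The number after the prefix of an ID names a cluster of expressed sequences in the array's design, so probe sets that share it read sequences grouped together. The 27 probe sets came from 27 clusters, and 9 of these had other probe sets on the array, 17 in all, of which 0 had a gene name in the probe table. Of the 17, 7 were above 250 on all 8 selecting TAM 111 arrays, and for 5 of these the TAM 111 mean was more than 2 times the TAM 112 mean. The ratio of the means among the 7 ran from 0.992 to 44.7.

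For the brightest cluster, the other probe set Ta.22403.2.A1_at averaged 252.2 ± 66.2 in TAM 111 (SD, n = 8 arrays) and 11.65 ± 10.2 in TAM 112 (SD, n = 12 arrays), so both probe sets of the cluster were low in TAM 112. The cluster of Ta.2939.2.S1_s_at differed. Ta.2939.1.S1_s_at averaged 1457 ± 154 in TAM 111 and 930.3 ± 101 in TAM 112, and Ta.2939.1.S1_x_at averaged 1485 ± 169 in TAM 111 and 1497 ± 143 in TAM 112 (SD, same n). One cluster can thus hold a probe set below 69 on every TAM 112 array beside one as bright there as in TAM 111.

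Ta.9304.2.S1_a_at averaged 126.6 ± 38.7 in TAM 111 and 56.84 ± 23.3 in TAM 112. In the cluster of Ta.6762.1.A1_at, Ta.6762.2.A1_at averaged 281.6 ± 95.6 in TAM 111 and 55.45 ± 16.5 in TAM 112, while Ta.6762.3.S1_at averaged 136.5 ± 31.9 in TAM 111 and 130.7 ± 23 in TAM 112. Others, chosen after their values were seen, were Ta.30560.1.S1_at, with 2777 ± 666 in TAM 111 and 62.17 ± 26.1 in TAM 112, and Ta.20147.1.S1_at, with 838.1 ± 202 in TAM 111 and 43.2 ± 18.4 in TAM 112 (SD, n = 8 and 12 arrays). Both were bright in TAM 111 and missed the list only because at least 1 TAM 112 array exceeded 69. Of the 10 other probe sets not above 250 throughout, 5 had a TAM 111 mean below 69.

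The question of how these probe sets responded to water and stage could be tested, since the choice did not use those contrasts, although a probe set that fell below 250 in any selecting TAM 111 array could not be among the 27. Tests were run with limma on log2(signal + 11.71) over 37516 probe sets, with Benjamini-Hochberg adjustment, and a probe set was called at an adjusted p below 0.05. All 27 were tested. The fit of all 24 arrays takes 1 spread from all groups. For the 27, the median SD of replicates on the log2 scale was 0.178 over TAM 111 replicates 1 and 3. It was 0.495 over all 3 TAM 111 replicates and 0.668 in TAM 112, where the values lie near the floor. The 0.178 rests on the arrays that chose the probe sets by signals above 250 on each. It is no independent measure of their spread. Because these SDs differed, a fit of the 9 TAM 111 arrays left without the intermediate 3 was added after the data were seen. This fit reuses the selecting arrays, so its SEs and p-values for the 27 may be too small. It is called the TAM 111 fit below. In it, heading dry, heading wet and grain filling wet each hold replicates 1 and 3 alone.

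Under dry treatment at grain filling, 2 of the 27 fell relative to wet leaves and 0 rose. Of all tested probe sets, 9.6% fell, 9.32% rose and 18.9% were called in all. Of the 15613 above 250 on the 8 selecting TAM 111 arrays, 4404 were called. For the TAM 111 fit, calls in that brighter class were not counted, so its shares below are over all tested. TaAffx.103568.1.S1_at had 331.9, 345.3 and 358.4 in dry leaves, against 1548, 1070 and 1496 in wet leaves. All dry arrays lay below all wet arrays, and the log2 change was -1.94 ± 0.40 (SE; adjusted p = 0.001209), a 3.83-fold lower level. TaAffx.13303.1.S1_at had 1308, 1046 and 998.6 in dry leaves, against 6514, 2780 and 4627 in wet leaves, again with no overlap, and a log2 change of -1.97 ± 0.45 (SE; adjusted p = 0.003245). Both calls held when any 1 array was left out.

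Without the 3 intermediate arrays the 24-array model again called 2, against 14.5% of all tested. The TAM 111 fit called 8, with 4 higher and 4 lower, against 16% of all tested. Its calls included the same pair, with log2 changes of -2.10 ± 0.12 (adjusted p = 6.061e-06) for TaAffx.103568.1.S1_at and -2.30 ± 0.20 (SE; adjusted p = 5.237e-05) for TaAffx.13303.1.S1_at. Called higher in this fit, but not by the 24-array model with or without the intermediate arrays, were Ta.28866.3.A1_at, Ta.11279.1.A1_at, Ta.9304.1.S1_at and Ta.883.1.S1_at. Their log2 changes in it were 1.23, 0.80, 0.56 and 0.44. With all 24 arrays their changes were 1.82, 0.91, 0.57 and 0.82 (adjusted p of 0.0565 to 0.3985). Called lower in this fit, but again not by the 24-array model, were Ta.22403.1.S1_at and Ta.11179.1.A1_at, with -0.68 and -0.43. With all 24 arrays these were -0.21 and -0.05 (adjusted p = 0.8169 and 0.9528), and their direction turned when single arrays were left out of that fit.

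Ta.11279.1.A1_at had 1217, 1239 and 1183 in dry leaves, against 748.3 and 637.2 in wet replicates 1 and 3 and 549.5 in the intermediate array. Its call (adjusted p = 0.005361 in the TAM 111 fit) was lost without wet replicate 3 (adjusted p = 0.05396). Ta.22403.1.S1_at had 3335, 3412 and 5207 in dry leaves, against 7153 and 5498 in wet replicates 1 and 3 and 2352 in the intermediate array, so its groups overlapped once that array was counted. The calls of Ta.22403.1.S1_at, Ta.11179.1.A1_at, Ta.28866.3.A1_at, Ta.9304.1.S1_at and Ta.883.1.S1_at were each lost when wet replicate 1, among others, was left out, and the count fell to 3 without wet replicate 3.

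The median log2 change of the 27 at grain filling, dry against wet, was 0.44 with all arrays, against -0.03 over all tested probe sets. Without the 3 intermediate arrays it was 0.18, against -0.04 over all tested. The wet group holds an intermediate array and the dry group does not. This contrast uses none of the other intermediate arrays, so the medians of the 27, 0.44 and 0.18, differ through that array alone. The cause of its values was not tested.

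Under dry treatment at heading, 2 of the 27 fell relative to wet leaves and 0 rose. Of all tested probe sets, 2.83% fell, 1.72% rose and 4.54% were called in all. Of the 15613 above 250 on the 8 selecting TAM 111 arrays, 1000 were called. Ta.23191.1.S1_at had 752.7, 797.8 and 419.2 in dry leaves, against 2581, 2832 and 4420 in wet leaves. The groups did not overlap, and the log2 change was -2.31 ± 0.37 (SE; adjusted p = 5.321e-04), a 4.97-fold lower level. In the TAM 111 fit it was -2.56 ± 0.38 (SE; adjusted p = 0.005923), and there the call was lost without wet replicate 3 or dry replicate 3 (adjusted p at most 0.0672).

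TaAffx.13303.1.S1_at had 848.2, 500.6 and 828 in dry leaves at heading, against 2285, 1454 and 3438 in wet leaves, with no overlap and a log2 change of -1.66 ± 0.45 (SE; adjusted p = 0.03715). This call was lost without any 1 of wet replicates 1 and 3 and dry replicates 1, 2 and 3 (adjusted p of 0.07089 to 0.1576), and without the 3 intermediate arrays (adjusted p = 0.1017), where the 24-array model called 1 of the 27, against 2.28% of all tested. In the TAM 111 fit it was -1.73 ± 0.22 (SE; adjusted p = 0.00316) and held with any 1 array left out.

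The TAM 111 fit called 4 of the 27 at heading, against 2.87% of all tested. The other 2 were TaAffx.103568.1.S1_at, with a log2 change of -1.14 ± 0.13 (SE; adjusted p = 0.002054), and Ta.8872.1.S1_at, with 0.57 ± 0.13 (SE; adjusted p = 0.0444), which lost its call whichever array was left out and had 0.50 (adjusted p = 0.6879) with all 24 arrays. TaAffx.103568.1.S1_at had 628.4, 401.4 and 630.2 in dry leaves, against 1355, 1088 and 1454 in wet leaves, with no overlap. With all 24 arrays its log2 change was -1.23 (adjusted p = 0.08458). The median log2 change of the 27 at heading was 0.06 with all arrays and 0.01 without the 3 intermediate arrays, against 0.03 and 0.02 over all tested probe sets.

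Between the stages, 2 of the 27 rose and 1 fell at grain filling relative to heading in TAM 111 with both water treatments averaged. Of all tested probe sets, 8.06% rose, 8.6% fell and 16.7% were called in all. Of the 15613 above 250 on the 8 selecting TAM 111 arrays, 4294 were called. Ta.1677.1.S1_at had 254.2, 425.3 and 371.7 at grain filling dry and 524.9, 274.3 and 422 at grain filling wet, against 558.5, 526.5 and 637.2 at heading dry and 878.3, 649.6 and 768.5 at heading wet. No grain filling array reached the lowest heading array, and the log2 change was -0.82 ± 0.25 (SE; adjusted p = 0.02737) in all 24 arrays and -0.78 ± 0.16 (SE; adjusted p = 0.0108) in the TAM 111 fit, where it held with any 1 array left out. In the 24-array fit it was lost without heading wet replicate 1 or 3, heading dry replicate 3, grain filling wet replicate 2 or grain filling dry replicate 1 (adjusted p at most 0.08505).

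The 2 that rose had overlapping stages and are named after their values were seen. Ta.23191.1.S1_at had 3069, 2214 and 1332 at grain filling dry and 4164, 3661 and 4133 at grain filling wet, against the heading values above, with a log2 change of 1.01 ± 0.26 (SE; adjusted p = 0.0102); in the TAM 111 fit it was 1.08 (adjusted p = 0.02096), and the call held in 4 of 9 fits that left out 1 array. Ta.8991.1.S1_at had 668.7, 744.9 and 449.9 at grain filling dry and 418.5, 244.7 and 427.9 at grain filling wet, against 347.5, 162.5 and 322.6 at heading dry and 274.5, 221.1 and 289.2 at heading wet. Its log2 change was 0.80 ± 0.24 (SE; adjusted p = 0.02501), and the call was lost without heading wet or heading dry replicate 2, grain filling wet replicate 1 or 3, or grain filling dry replicate 1 or 2 (adjusted p at most 0.0802). In the TAM 111 fit it was 0.70 (adjusted p = 0.01498), called in 7 of 9 fits that left out 1 array.

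Without the 3 intermediate arrays the 24-array model called 1 of the 27, Ta.23191.1.S1_at, against 9.84% of all tested. The TAM 111 fit called 6, with 4 higher and 2 lower, against 11.9% of all tested, and the count fell to 1 without heading dry replicate 3. The members it added were TaAffx.13303.1.S1_at (log2 change 0.68, and 0.80 with all 24 arrays), Ta.883.1.S1_at (0.28, and 0.47) and TaAffx.103568.1.S1_at (-0.37, and -0.28). Of 9 fits that left out 1 array each, TaAffx.13303.1.S1_at was called in 7, TaAffx.103568.1.S1_at in 2 and Ta.883.1.S1_at in 0. The median log2 change of the 27 was 0.14 with all arrays and -0.07 without the intermediate 3, against -0.016 and -0.004 over all tested probe sets. Of the 3 intermediate arrays, 2 are heading arrays and 1 is a grain filling array.

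Whether the water effect differed between the stages in TAM 111 was tested as an interaction. It was called for 0 of the 27 by limma over all 24 arrays, where 1 had an unadjusted p below 0.05 and 3.07% of all tested were called, and for 0 without the intermediate arrays, where 0.464% of all tested were called. The TAM 111 fit called 1, against 1.4% of all tested: for TaAffx.103568.1.S1_at the dry against wet log2 change was more negative at grain filling than at heading by -0.96 ± 0.18 (SE; adjusted p = 0.03315), a call kept in 2 of 9 fits that left out 1 array. With all 24 arrays it was -0.70 (adjusted p = 0.5844).

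In TAM 112 the 27 lay below 69 by choice, and so below the highest control signal. They passed the filter on low values only through their TAM 111 signals. Their TAM 112 contrasts are therefore differences near the floor of the scale, and nothing is read from the counts of calls. Over all 24 arrays limma called 0 of the 27 for dry against wet at heading (3 at an unadjusted p below 0.05), 2 for dry against wet at grain filling and 2 for grain filling against heading, where 3.6%, 31.6% and 29.4% of all tested probe sets were called. With no filter the grain filling count was 0, and with a larger pseudocount both counts of 2 became 0. As an example of these levels, chosen after its values were seen, Ta.28835.2.S1_a_at had 53.41, 43.39 and 24.4 in dry leaves and 14.17, 10.95 and 3.634 in wet leaves of TAM 112 at grain filling.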

How the data were processed

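Biotin-labelled cRNA was hybridised to Affymetrix wheat arrays. The deposited intensity values are MAS5 signals on a linear scale, per the submitters' processing notes, which name MAS5; its version is not given in the sources used here. All 24 columns were matched to samples by their labels. Of 61290 probe sets, 111 controls with the prefix AFFX were left out of the choice and the tests. Signals were taken as log2(signal + 11.71), the 20th percentile of all values, and probe sets above 69 on at least 3 arrays were tested (37516). limma 3.58.1 in R 4.3.3 fitted 8 group means with trended eBayes (16 residual and 5.53 prior degrees of freedom) and Benjamini-Hochberg adjustment over all tested. The 24-array fit was also run on simulated data with independent noise around group means and no intermediate arrays. The TAM 111 fit was not run on simulated data. The number of arrays limits the precision.

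Named probe sets were those with 1 gene, the 8 brightest, called ones without overlap, those nearest the limits, the extremes of the replicate 2 positions, and 4 with cluster partners. The members and lists were chosen with earlier results of these data known. Same-numbered arrays correlated at -0.0479 to 0.215 in their deviations from group means, so the numbers were not taken as pairs. Alternatives were the pseudocount, filter, quantile normalization, variance trend, array weights, replicate block, samples in the fit, arrays left out and limits of the choice; both fits of TAM 111 arrays alone were added after seeing the data. A list of grain and pollen genes by product name could not be applied, since the tables used give no product names.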

Additional observations from a re-analysis of the deposited data

Results flagged for a closer look

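The water effect of TaAffx.103568.1.S1_at was called different between the stages in the limma fit of the 9 TAM 111 arrays. This fit was added after the data were seen, and it called 1.4% of all tested probe sets for this difference. In it the dry against wet log2 change was -2.10 at grain filling and -1.14 at heading. The difference was -0.961 ± 0.178 (SE, limma adjusted p = 0.03315). The signals in TAM 111 replicates 1, 2 and 3 were 331.9, 345.3 and 358.4 in dry leaves at grain filling, against 1548, 1070 and 1496 in wet leaves, and 628.4, 401.4 and 630.2 in dry leaves at heading, against 1355, 1088 and 1454 in wet leaves. The difference was still called in 2 of 9 fits that left out 1 array each, with adjusted p-values of 0.02026 to 0.1222. In the limma fit of all 24 arrays it was -0.70 ± 0.56 (SE, adjusted p = 0.5844).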

How the results depend on the processing

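The number of probe sets depends on the limits: it was 41 above 200, 12 above 500, 13 below 50, 51 below 100 and 15 with all 12 TAM 111 arrays above 250, and 28 after quantile normalization. Of the 2 members called for water at heading in TAM 111, 1 was called with a pseudocount of 1, no filter, no variance trend, without the 3 intermediate arrays or without all 4 TAM 111 arrays numbered 2, and 4 in the TAM 111 fit without the intermediate arrays. At grain filling (2 called) the count was 1 with a pseudocount of 1, 7 with a pseudocount 4 times as large, 9 with only the arrays compared, 4 with the 12 TAM 111 arrays and 8 in the TAM 111 fit. For stage (3 called) it was 0 with a pseudocount of 1, 6 with the larger pseudocount, 1 without the 3 intermediate arrays, 0 without the 4 arrays, and 6 with only the arrays compared, with the 12 TAM 111 arrays and in the TAM 111 fit. For the difference of the water effect (0 called) it was 1 in the TAM 111 fit. In TAM 112, the heading count (0) was 1 with a pseudocount of 1. The grain filling count (2) was 4 with a pseudocount of 1, 1 after quantile normalization, and 0 with the larger pseudocount, no filter or only the arrays compared. The stage count (2) was 0 with the larger pseudocount or only the arrays compared. Leaving out 1 array at a time gave 1 to 2, 2 to 3, 1 to 3 and 0 to 0 for heading, grain filling, stage and difference in TAM 111, and 0 to 1, 0 to 4 and 1 to 2 for heading, grain filling and stage in TAM 112. The dry against wet log2 change of Ta.11179.1.A1_at at grain filling ran from -0.425 to 0.142 when 1 array was left out of the 24-array fit, above 0 without wet replicate 1 (0.142), wet 3 (0.12) or dry 3 (0.004), and that of Ta.22403.1.S1_at from -0.684 to 0.116, above 0 without wet replicate 1; in the TAM 111 fit they ran from -0.496 to -0.367 and from -0.892 to -0.495. With the replicate block the counts were 3, 2, 3 and 0 for heading, grain filling, stage and difference in TAM 111 and 0, 2 and 2 in TAM 112; the numbers are not shown to pair samples, and 19 of 48 array comparisons were closest to their own number. Of the other values of single probe sets, 343 kept direction and side of the threshold, 26 gained and 30 lost a call. The causes were not tested. For most of these alternatives the share called among all tested probe sets is not given here. The counts therefore show how the calls move with the setting, and nothing more is read about the members. The median positions of the replicate 2 arrays moved by less than 1 SD. On these arrays the SD of the positions among the 27 ran from 15.4 to 20.3 percentage points. That is a spread among probe sets and not the error of a median, so smaller moves are not described. Signals near 69 and below lie under the highest control signal, which limits what TAM 112 values can show.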
